A study of Mus musculus with 8 samples.

Results

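The genes described here are 10 of the contractile apparatus of skeletal muscle: the myosin light chain genes Myl1, Myl2, Myl3, Myl4, Mylpf and Myl6b, the light chain kinase gene Mylk2, and the tropomyosin genes Tpm1, Tpm2 and Tpm3. They were chosen by name, through their Ensembl identifiers, from the 49315 genes in the deposited counts, and all 10 were found. The counts came from gastrocnemius, the large calf muscle, of C57BL/6 mice aged 3, 12, 24 or 30 months, with 2 RNA sequencing libraries at each age. No treatment or genotype is named in the labels, and nothing but age separates the groups there. The series was made to follow the transcriptome and its splicing in ageing muscle, and splicing was not analysed here.

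Each myosin head of a muscle fibre carries an essential and a regulatory light chain, which stiffen its lever arm and tune the force and speed of contraction. Tropomyosin is a coiled coil that lies along the actin filament and, moved by calcium-bound troponin, exposes or covers the sites where myosin binds. Slow fibres use Myl2 as regulatory and Myl3 as essential light chain and Tpm3 as tropomyosin, fast fibres use Mylpf, Myl1 and Tpm1, and both kinds use Tpm2. The gastrocnemius of the mouse is made mostly of fast fibres.

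Promoters of 3 of these genes are shown. They were picked because the slow genes Myl3 and Tpm3 stood higher in old muscle while the fast gene Mylpf did not. Neither rise passed the main test after adjustment over all genes. Each sequence is taken from the 250 bases before the start site in RefSeq on GRCm38.p6, read 5′ to 3′ on the strand of the gene, and stops before any exon of GENCODE M21, which leaves 218 bases for Myl3, 248 for Tpm3 and 250 for Mylpf. For Myl3 and Mylpf the RefSeq start lies inside the counted gene, which GENCODE begins farther upstream. Capitals mark matches, on either strand, to the E-box CANNTG bound by myogenic factors, the M-CAT element CATTCC, the TATA box TATAAA, and the MEF2 and CArG elements by name. No match to one of these motifs overlaps another.
Myl3, chr9:110763428-110763645, plus strand: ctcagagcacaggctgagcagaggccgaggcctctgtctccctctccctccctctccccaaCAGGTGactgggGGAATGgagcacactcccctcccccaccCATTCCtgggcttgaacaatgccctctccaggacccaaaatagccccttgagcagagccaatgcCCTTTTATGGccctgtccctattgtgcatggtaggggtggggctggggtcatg
Tpm3, chr3:90072401-90072648, plus strand: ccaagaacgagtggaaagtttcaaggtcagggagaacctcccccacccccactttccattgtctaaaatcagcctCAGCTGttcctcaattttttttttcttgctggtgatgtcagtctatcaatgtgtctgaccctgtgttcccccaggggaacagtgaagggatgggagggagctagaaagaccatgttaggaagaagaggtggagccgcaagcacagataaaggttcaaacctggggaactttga
Mylpf, chr7:127211358-127211607, plus strand: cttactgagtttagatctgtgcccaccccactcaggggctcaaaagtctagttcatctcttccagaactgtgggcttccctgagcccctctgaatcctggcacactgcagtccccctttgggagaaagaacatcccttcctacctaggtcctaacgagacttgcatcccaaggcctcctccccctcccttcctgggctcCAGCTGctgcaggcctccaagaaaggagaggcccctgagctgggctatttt
Each of the 3 windows held 1 E-box, and 66.2% of 32851 RefSeq windows of 250 bases held at least 1. The window of Myl3 held 2 M-CAT elements and 1 CArG element. At least 1 M-CAT element was found in 12.6% of windows and at least 1 CArG element in 1.47%. No TATA box, present in 12.4% of windows, and no MEF2 element, present in 2.92%, was found in these 3. Windows of other members and another window of Tpm3 were searched but are not shown. Of these, the windows of the fast genes Myl1 and Tpm1 also held M-CAT matches. TATA boxes were found for Myl1 and for slow Myl2. The window of Myl1 lies inside the counted gene, with its start site 348 bases in. It has 0 bases before an annotated exon. The Myl2 window with the match has its start site at 122093189, far upstream of the counted gene, which begins at 122100951. That window is therefore not at the start of the counted gene. These matches describe letters and are not evidence of binding.

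Library totals were 42404254 to 59245029 counts, of which the 10 genes made up 2.87% to 3.56%. All 8 skeletal muscle markers were detected in every library, with a summed level of 178850 to 278002 CPM (counts scaled to a common library size, with TMM factors between libraries). Whether the pair of libraries at an age stems from different mice is not stated in the labels, and p-values therefore reflect library-to-library spread that may be technical. Libraries also stood apart in kidney transcripts. The summed level of 9 kidney genes was 55.7 and 15.8 CPM of library totals in replicates 1 and 2 of 3 months, 5.69 and 0.696 in those of 12 months, 4.36 and 0.574 in those of 24 months and 0.669 and 4.18 in those of 30 months. Both 3 month libraries are among the 5 above 1 CPM, and results are also given with this set as a term. That split was known from earlier results of these data.

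Per kilobase of exon, the fast isoforms Mylpf, Myl1 and Tpm1 stood far above the slow isoforms Myl2, Myl3 and Tpm3. The median level over the 8 libraries was 5892 CPM per kilobase for Mylpf, 3199 for Myl1, 2270 for Tpm1, 1334 for Tpm2, 211 for Mylk2, 108 for Myl3, 80.8 for Myl2, 19.7 for Tpm3, 2.14 for Myl6b and 1.93 for Myl4. The highest and the lowest of these medians differed 3059-fold. Ranges over the libraries overlapped between the neighbours Myl1 and Tpm1, Tpm1 and Tpm2, Mylk2 and Myl3, Myl3 and Myl2, and Myl6b and Myl4. Within each of the 8 libraries Myl1 lay above Tpm1. The order of the other overlapping neighbours was reversed in replicate 2 of 30 months, and for Myl6b and Myl4 also in replicate 1 of 24 months, so it is not firm. They did not overlap between Mylpf and Myl1, Tpm2 and Mylk2, Myl2 and Tpm3, or Tpm3 and Myl6b. The highest library was 6.74 times the lowest for Tpm3, 3.64 times for Myl2, 3.03 times for Myl4 and 2.87 times for Myl3, and between 1.41 times (Tpm2) and 2.30 times (Myl6b) for the other 6 genes. Lengths count every annotated exon base of a gene, which lowers the level of genes with long or rarely used exons.

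**Figure D1:**
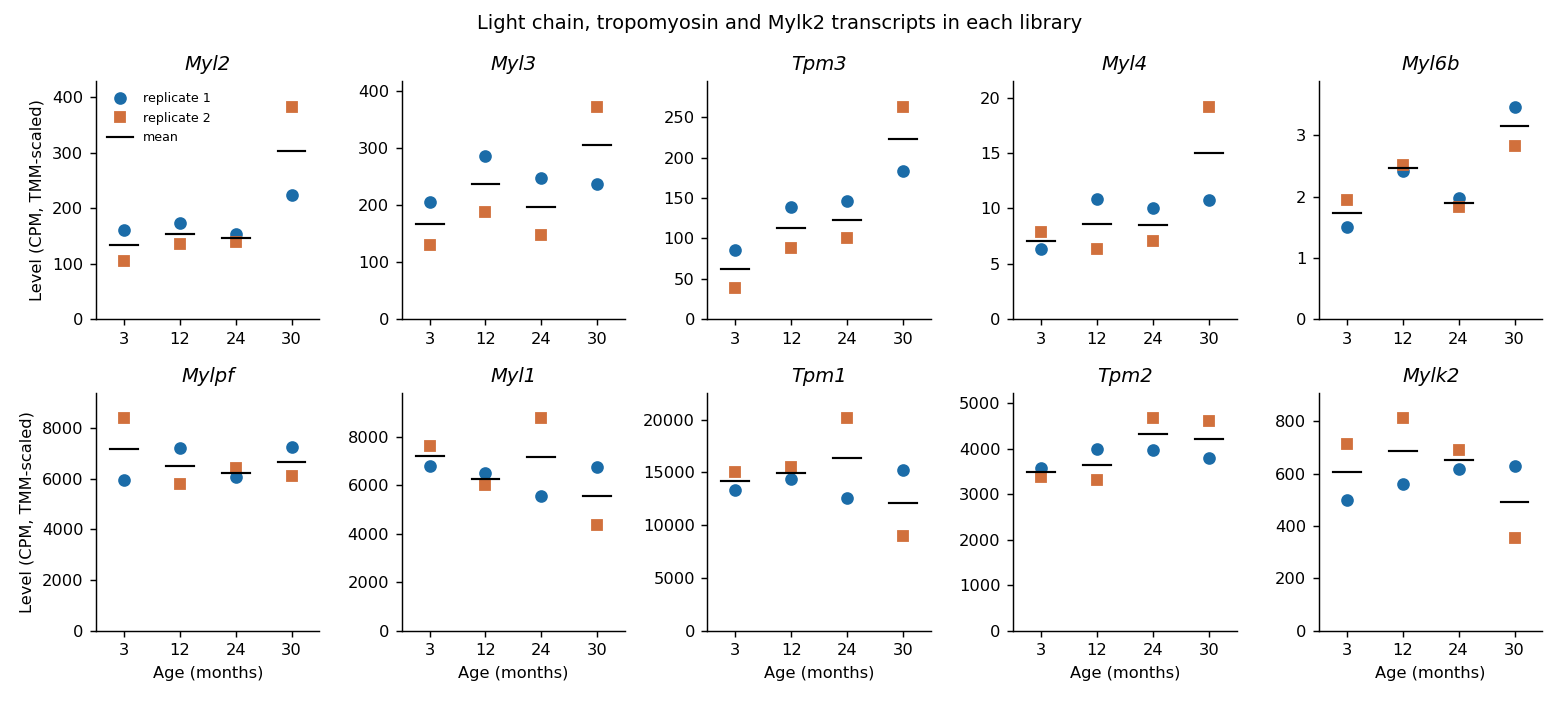
Levels of the 10 genes in CPM on linear axes from 0 (y) at 4 ages in months (x), with circles for replicate 1, squares for replicate 2 and bars for the mean of 2 libraries. Myl2, Myl3, Tpm3, Myl4, Myl6b and Tpm2 have both 30 month libraries above both 3 month libraries. Myl1 has both below, and Mylpf, Tpm1 and Mylk2 have overlapping groups.

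Of the slow isoforms, Myl2, Myl3 and Tpm3 all stood higher at 30 months than at 3 months in both libraries, without passing the test across all genes. Myl2 (ENSMUSG00000013936, GRCm38 chromosome 5, 122100951 to 122113472) encodes the regulatory light chain of slow skeletal and ventricular muscle. Its level was 161 and 105 CPM in the 3 month libraries, 173 and 135 in those of 12 months, 155 and 139 in those of 24 months and 224 and 384 in those of 30 months. The 30 month libraries were the 2 highest of the 8, and the 3 earlier ages overlapped each other. The mean was 304 ± 113 CPM at 30 months against 133 ± 39.1 CPM at 3 months (SD, n = 2 each), with a log2 fold change of 1.19 (SE 0.29, 95% interval 0.53 to 1.85, edgeR adjusted p = 0.232).

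Myl3 (ENSMUSG00000059741, chromosome 9, 110741861 to 110769798) encodes the essential light chain that partners Myl2 in slow and ventricular muscle. Its level was 205 and 129 CPM in the 3 month libraries, 285 and 188 in those of 12 months, 247 and 147 in those of 24 months and 236 and 372 in those of 30 months. Replicate 1 of 12 months and of 24 months lay above replicate 1 of 30 months, so the 30 month group overlapped both middle ages. Between 30 and 3 months its log2 fold change was 0.86 (SE 0.35, 95% interval 0.06 to 1.67, edgeR adjusted p = 0.559).

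Tpm3 (ENSMUSG00000027940, chromosome 3, 90072649 to 90100902) encodes the tropomyosin of slow fibres and, from other starts and exons, tropomyosins of non-muscle cells. Its level was 85.9 and 39.1 CPM in the 3 month libraries, 139 and 87.9 in those of 12 months, 146 and 101 in those of 24 months and 184 and 263 in those of 30 months. Every later library lay above both 3 month libraries, and both 30 month libraries lay above all others. Tpm3 had the widest spread of the 10 genes, with a mean of 224 ± 56.1 CPM at 30 months against 62.5 ± 33.1 CPM at 3 months (SD, n = 2 each), 3.58-fold higher. On the log2 scale the difference was 1.84 (SE 0.40, 95% interval 0.92 to 2.76, edgeR adjusted p = 0.197). Counts are summed over all Tpm3 transcripts, so muscle and non-muscle forms cannot be told apart. A copy, Tpm3-rs7, matches a Tpm3 transcript at 99.1% of 2108 aligned bases and had at most 19 counts in a library. How reads matching both were counted is not stated, and the level of Tpm3 is uncertain. In bulk muscle, more slow fibres and more RNA per slow fibre cannot be told apart for any of these genes.

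Myl4 and Myl6b, which are low in adult limb muscle, also stood higher at 30 months in both libraries, again short of a call. Myl4 (ENSMUSG00000061086, chromosome 11, 104550663 to 104595753) encodes the essential light chain of embryonic muscle and of the atria. Its level was 6.33 and 7.84 CPM in the 3 month libraries, 10.8 and 6.34 in those of 12 months, 10.02 and 7.05 in those of 24 months and 10.7 and 19.2 in those of 30 months. Replicate 2 of 30 months stood well above the rest, and replicate 1 was level with replicate 1 of 12 months. The log2 fold change at 30 against 3 months was 1.08 (SE 0.34, 95% interval 0.31 to 1.85, edgeR adjusted p = 0.379). Myl6b (ENSMUSG00000039824, chromosome 10, 128494157 to 128498685) encodes an essential light chain of slow muscle and non-muscle cells. Its level was 3.47 and 2.82 CPM at 30 months against 1.51 and 1.95 CPM at 3 months, with 1.83 to 2.52 CPM in the 4 libraries between. It was the scarcest of the genes by counts, with 70 in the lowest library and 158 in the highest. A stretch of 152 bases matches its relative Myl6, which had up to 3614 counts, at 90.1%, and reads there may be shared. The log2 fold change of Myl6b was 0.86 (SE 0.23, 95% interval 0.34 to 1.38, edgeR adjusted p = 0.284).

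Myl2, Myl3 and Myl4 are also heart genes, and the heart marker list was low throughout. The summed level of 7 heart markers was 4.66 and 8.01 CPM at 30 months against 2.85 and 1.71 CPM at 3 months, with 1 or 2 of the 7 at a count of 0 in each library, and their part in these levels was not tested. Of these markers 3 could be tested and all 3 lay above 0 on the log2 scale at 30 against 3 months (median 1.54), Ryr2 at 3.08, the cardiac troponin I gene Tnni3 at 1.54 (adjusted p = 0.458) and the alpha heavy chain gene Myh6 at 1.02 (adjusted p = 0.578). The atrial genes Nppa and Myl7 were at 0.0648 to 0.195 CPM and at 0 to 0.0216 CPM over the 8 libraries. Most of the sum was Myh6 and Ryr2. The calcium release channel gene Ryr2 was called higher at 30 months, at 2.55 ± 0.866 CPM against 0.301 ± 0.0325 CPM at 3 months (SD, n = 2 each), or 3.08 on the log2 scale (SE 0.36, edgeR adjusted p = 0.0169). That call was lost without replicate 1 of 3 months (adjusted p = 0.227) or replicate 2 (adjusted p = 0.276). On the opposite strand, exons of Ccdc63 share 60 bases with Myl2 and exons of Pth1r share 95 bases with Myl3, and these genes had at most 32 and 70 counts in a library. Myl4 is crossed by 4 genes on the other strand, with at most 25 counts in any library.

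Of the fast isoforms, Mylpf and Tpm1 overlapped between 30 and 3 months, Myl1 was lower in both 30 month libraries, and none was called. Mylpf (ENSMUSG00000030672, chromosome 7, 127208890 to 127214298) encodes the fast regulatory light chain. Its level was 7229 and 6107 CPM at 30 months against 5952 and 8385 CPM at 3 months, and the groups overlapped. The log2 fold change was -0.10 (SE 0.27, 95% interval -0.71 to 0.50). Myl1 (ENSMUSG00000061816, chromosome 1, 66924295 to 66945404) gives both fast essential light chains from a pair of promoters, and the counts hold both. Its level was 6754 and 4381 CPM at 30 months against 6818 and 7614 CPM at 3 months, or a log2 fold change of -0.37 (SE 0.31, 95% interval -1.07 to 0.33). Its 24 month libraries, at 5548 and 8773 CPM, were farther apart than the means of any 2 ages. The pseudogene Mylf-ps matches Myl1 at 99.3% of 421 aligned bases and was not analysed here.

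Tpm1 (ENSMUSG00000032366, chromosome 9, 67022590 to 67049406), the fast and cardiac tropomyosin gene, had the highest CPM of the 10. Its level was 15219 and 8970 CPM at 30 months against 13375 and 15037 CPM at 3 months. The 24 month libraries held 12530 and 20132 CPM, below and above every other library except replicate 2 of 30 months. Between 30 and 3 months its log2 fold change was -0.23 (SE 0.34, 95% interval -1.005 to 0.54). Tpm2 (ENSMUSG00000028464, chromosome 4, 43514711 to 43523765) encodes beta-tropomyosin. Its level was 3798 and 4608 CPM at 30 months against 3585 and 3371 CPM at 3 months, and the log2 fold change came to 0.27 (SE 0.24, 95% interval -0.26 to 0.81). Smooth muscle also uses Tpm1 and Tpm2. The summed level of 6 smooth muscle markers was 137 and 206 CPM at 30 months against 137 and 122 CPM at 3 months, none of them at a count of 0 in any library, and their part in these levels was not tested. Mylk2 (ENSMUSG00000027470, chromosome 2, 152911352 to 152923068) encodes the skeletal muscle kinase that phosphorylates regulatory light chains. Its level was 628 and 356 CPM at 30 months against 500 and 713 CPM at 3 months, and the log2 fold change came to -0.30 (SE 0.31, 95% interval -0.9999 to 0.40). For these 5 genes edgeR gave adjusted p-values of 0.822 (Myl1) to 0.952 (Mylpf). The intervals leave room for changes in either direction.

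**Figure D2:**
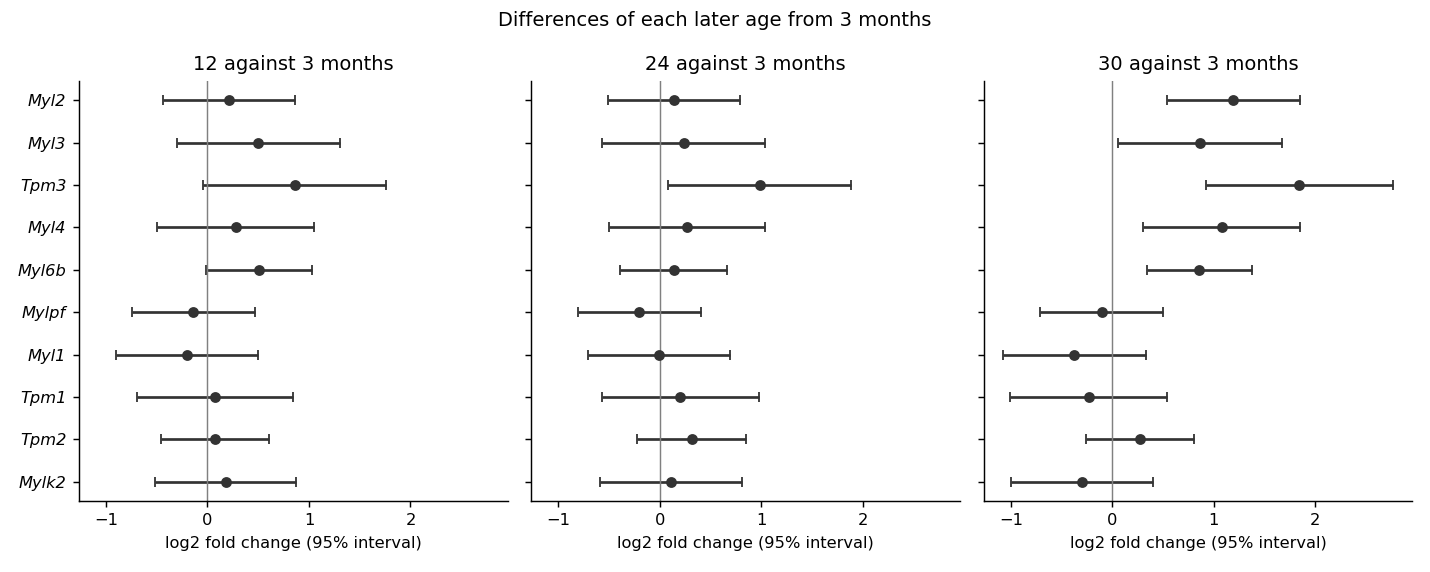
Log2 fold changes (x) of the 10 genes (rows) at 12, 24 and 30 months over 3 months, points with 95% intervals from edgeR's quasi-likelihood fit. At 30 months the intervals of Myl2, Myl3, Tpm3, Myl4 and Myl6b lie above 0, before adjustment over all genes.

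Across the 10 genes, 0 were called at 30 against 3 months (edgeR quasi-likelihood, Benjamini-Hochberg adjusted p below 0.05), where 0.148% of 19571 tested genes were. With no adjustment 5 of 10 had a p under 0.05, all 5 higher at 30 months, against 8.52% of all tested genes and 5.18% that were higher. The libraries of 30 months lay entirely above those of 3 months for 6 genes and entirely below for 1, Myl1, where 21.1% and 20.2% of tested genes did. The median log2 fold change was 0.57 over the 10 genes and 0.0093 over all genes tested. The genes were chosen with earlier results known, so no test over the list is given.

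The fit with the kidney-transcript set as a term called 3 of the 10 genes higher at 30 months, where it called 2.13% of all genes and 1.48% as higher. These were Myl2 at a log2 fold change of 1.37 (adjusted p = 0.0154), Myl3 with 1.16 (adjusted p = 0.0203) and Myl4 with 1.37 (adjusted p = 0.00207). Tpm3 had 2.10 in that fit (adjusted p = 0.0538). Without replicate 2 of 30 months the same fit called 0 of the 10, where it called 0.548% of 20444 genes tested, and Myl4 came nearest with 1.24 (adjusted p = 0.0546). DESeq2 called Myl2 (adjusted p = 0.00402) and Tpm3 (adjusted p = 2.04e-05) of the 10, and 1.09% of all genes, 0.720% as higher. Within the set above 1 CPM, the 30 month library, which is replicate 2, differed from the mean of both 3 month libraries in log2 CPM by 1.56 for Myl2, 1.19 for Myl3, 2.18 for Tpm3, 1.44 for Myl4 and 0.70 for Myl6b. For replicate 1, of the other set, the differences from the same mean were 0.78 for Myl2, 0.54 for Myl3, 1.67 for Tpm3, 0.61 for Myl4 and 0.9996 for Myl6b. No 3 month library lies in the other set, so set and age cannot be fully told apart.

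Replicate 2 of 30 months held the highest level of 4 of the 10 genes (Myl2, Myl3, Tpm3 and Myl4) and the lowest of 3 (Myl1, Tpm1 and Mylk2). Without it, the log2 fold change at 30 against 3 months was 0.76 for Myl2, 0.50 for Myl3, 1.56 for Tpm3, 0.60 for Myl4 and 1.00 for Myl6b, and -0.09 for Myl1. Tpm1, Mylk2 and Mylpf then came to 0.10, 0.05 and 0.02. Replicate 2 of 3 months held the lowest level of Myl2, Myl3 and Tpm3, with Tpm3 at 0.455 of its level in replicate 1. Without it the log2 fold change was 0.92 for Myl2, 0.57 for Myl3 and 1.39 for Tpm3.

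**Figure D3:**
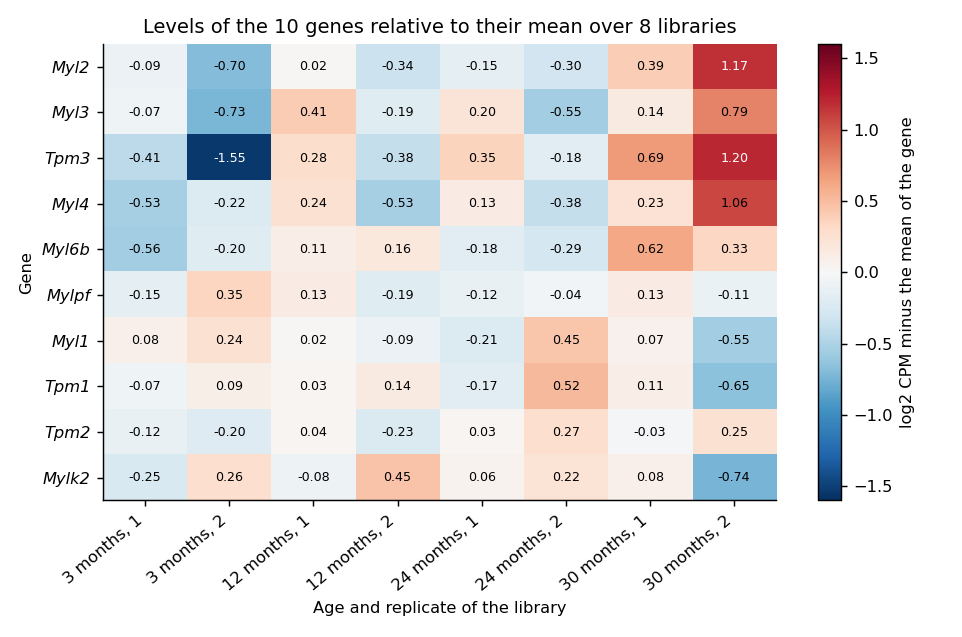
Log2 CPM of each gene (rows) minus its mean over the 8 libraries (columns, by age and replicate), red above and blue below the mean. Replicate 2 of 30 months stands at 1.17 for Myl2, 1.204 for Tpm3, -0.65 for Tpm1 and -0.74 for Mylk2, and replicate 2 of 3 months at -1.55 for Tpm3.

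At 12 months 0 of 10 genes were called in edgeR, against 0.0409% of all genes, and 0 had an unadjusted p under 0.05, against 5.50%. At 24 months 0 were called, against 0.102%, and 1, Tpm3, had an unadjusted p under 0.05, against 7.56%. DESeq2 and the fit with the set also called 0 at both ages, against 0.353% and 0.148% of all genes at 12 months and 0.680% and 0.363% at 24 months. At 12 months 3 genes did not overlap with 3 months (Myl6b and Tpm3 above, Myl1 below), against 38.5% of all genes. At 24 months 2 did not (Tpm2 and Tpm3, both above), against 39.4%. The log2 fold change of Tpm3 was 0.86 at 12 months (SE 0.39, adjusted p = 0.899) and 0.98 at 24 months (SE 0.39, adjusted p = 0.631), and both later groups lay above the 3 month libraries. That of Myl2 was 0.21 and 0.14, that of Myl3 0.50 and 0.24, that of Myl4 0.28 and 0.27, and that of Myl6b 0.51 and 0.13 at these ages. Comparisons with 3 months share its libraries and are not independent of each other.

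Among the later ages, Myl2 was higher at 30 months than in every library of 12 and 24 months, without a call. Its log2 fold change was 1.05 at 30 against 24 months (SE 0.29, edgeR adjusted p = 0.998, unadjusted p = 0.00541) and 0.98 at 30 against 12 months (SE 0.29, adjusted p = 0.712, unadjusted p = 0.00803). It was -0.07 at 24 against 12 months. No member was called in edgeR in these comparisons, where 0.00%, 0.00511% and 0.00% of all genes were. DESeq2 and the set also called 0, against 0.317% and 0.281% of all genes at 30 against 12 months, 0.00% by both at 30 against 24 months, and 0.0204% and 0.00% at 24 against 12 months. With no adjustment 3, 3 and 0 had a p under 0.05, against 3.10%, 5.21% and 3.07% of all genes. Both 30 month libraries lay above both of 24 months for 4 genes (Myl2, Myl4, Myl6b and Tpm3), where 13.3% of all genes did, and above both of 12 months for 3 (Myl2, Myl6b and Tpm3), where 16.1% did. Myl6b was lower in both libraries of 24 months than in those of 12 months, as were 14.0% of all genes. Each kidney-transcript set holds 1 library of each later age. The log2 CPM of Myl2 at 30 months minus that at 24 months was 1.31 in the set above 1 CPM and 0.69 in the other, and for Tpm3 it was 0.85 and 0.87.

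A slope on age was called for 0 of the 10 genes in edgeR, against 0.133% of all genes. Tpm3 had the steepest, a monthly log2 difference of 0.0588 (SE 0.014, adjusted p = 0.16), followed by Myl2 with 0.0365 (SE 0.012, adjusted p = 0.325) and Myl4 with 0.0335 (SE 0.012, adjusted p = 0.374). With no adjustment 3 slopes had a p under 0.05, all upward, against 9.83% of all genes and 5.43% upward. DESeq2 called Tpm3 (adjusted p = 0.0022), and the fit with the set called Myl4 (adjusted p = 0.0211). Both of these called 1 of the 10, against 1.52% and 1.51% of all genes, and 0.961% and 0.925% in the same upward direction.

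Within each family the slow isoform stayed a small part of the transcripts per kilobase at every age. Myl2 made up 1.45% and 0.680% of Myl2 and Mylpf together in the 3 month libraries, 1.29% and 1.26% in those of 12 months, 1.37% and 1.16% in those of 24 months and 1.66% and 3.31% in those of 30 months. Myl3 made up 2.96% and 1.70% of Myl3 and Myl1 in the 3 month libraries, 4.25% and 3.07% in those of 12 months, 4.33% and 1.67% in those of 24 months and 3.43% and 7.94% in those of 30 months. Replicate 1 of 30 months lay within the range of the middle ages for Myl3 and above it for Myl2. Tpm3 made up 0.426% and 0.184% of the 3 tropomyosin genes in the 3 month libraries, 0.632% and 0.407% in those of 12 months, 0.724% and 0.350% in those of 24 months and 0.822% and 1.44% in those of 30 months. The slow heavy chain gene Myh7 made up 0.497% and 1.43% of Myh1, Myh2, Myh4 and Myh7 at 30 months against 0.192% and 0.0722% at 3 months. The share of Tpm2 among the tropomyosins was 35.5% and 52.6% at 30 months against 37.2% and 33.3% at 3 months, and 32.2% to 41.1% between. These shares do not depend on scaling between libraries, and they carry the counting of every exon noted above.

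**Figure D4:**
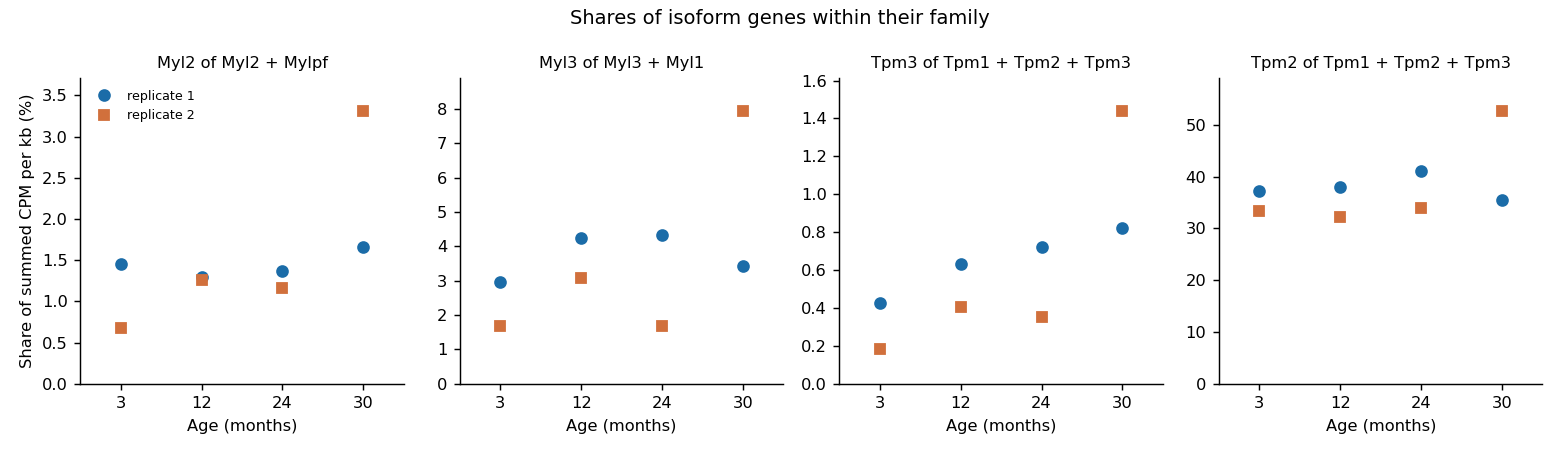
Share of Myl2, Myl3, Tpm3 and Tpm2 in the summed CPM per kilobase of their families in percent (y, from 0) at each age in months (x), circles for replicate 1 and squares for replicate 2. Replicate 2 of 30 months has the highest share in each panel, at 3.31%, 7.94%, 1.44% and 52.6%.

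The genes whose log2 CPM followed these most closely over the 8 libraries were found among those with an average log2 CPM of at least 4, as a description of libraries that share their composition. For Tpm3 they were the slow troponin genes Tnni1 (Pearson r = 0.991) and Tnnt1 (0.978), with Arpp19 (0.980) between them. For Myl3 the closest was Tnnc1, the troponin C gene of slow and cardiac muscle (0.949), then Dhrs4 (0.940) and Ptma (0.928). Myl2 was followed by Clic4 (0.967), Xirp1 (0.963) and Casq2, the slow and cardiac calsequestrin gene (0.955). Tpm1 ran with Psd3 (0.988), the phosphorylase kinase subunit gene Phkg1 (0.986) and Tut4 (0.986), and Myl1 with Phkb, another subunit of that kinase (0.988), Bmpr1a (0.983) and Plcd4 (0.978). Mylk2 ran with Rnf150 (0.969), Maf (0.966) and Xpr1 (0.964), Mylpf with Mapre2 (0.941), Tnxb (0.936) and Zhx2 (0.891), Tpm2 with Ctnna1 (0.971), and Myl6b with Rbm10 (0.938), Dapk2 (0.913) and Zbtb7a (0.897).

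Other genes of the contractile apparatus were read from fixed lists beside the 10. Of 12 other slow fibre genes, 1 passed over all genes at 30 against 3 months in edgeR, the heavy chain gene Myh7. That fit called 0.148% of all genes tested. Above 0 on the log2 scale lay 9 of the 12, and the median of the 12 was 1.205 against 0.0093 for all genes. Myh7 was at 685 ± 286 CPM at 30 months against 100.4 ± 33.0 CPM at 3 months (SD, n = 2 each), or 2.77 on the log2 scale (SE 0.35, adjusted p = 0.028). It lost the call without either 3 month library (adjusted p = 0.137 and 0.297) or either 24 month library (0.0743 and 0.0837). The call was also lost with the replicate number as a block (adjusted p = 0.0687), with library totals in place of TMM (0.116) and with only the libraries compared (0.0825). Tnnt1, the slow troponin T gene, differed by 2.28 on the log2 scale (edgeR adjusted p = 0.0663). Atp2a2, the slow calcium pump gene, differed by 1.47 (edgeR adjusted p = 0.146). DESeq2 called Myh7 (adjusted p = 3.9e-17), Tnnt1 (5.08e-10) and Atp2a2 (5.69e-05) higher, as it did 0.720% of all genes. With the set as a term 5 of the 12 were called higher, where 1.48% of all genes were. Without replicate 2 of 30 months that fit called 1, Myh7, and Tnnt1 had an adjusted p of 0.462 in place of 0.0399 and Atp2a2 0.0878 in place of 0.00447. Of 12 other fast fibre genes 0 passed and 3 were positive, with a median of -0.09. The lowest p-values were those of Myoz1, of the Z-disc, at -0.53 (adjusted p = 0.601), Myh2, the heavy chain of the more oxidative fast fibres, at 0.60 (0.738, and -0.20 without replicate 2 of 30 months), and Pvalb, the calcium buffer of fast fibres, at -0.53 (0.74).

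Of 9 myosin heavy chain genes Myh7 alone passed in edgeR, against 0.148% of all genes, and 8 were positive, with a median of 0.75. Myh7b had a log2 fold change of 1.45 (edgeR adjusted p = 0.149) and embryonic Myh3 1.88 (edgeR adjusted p = 0.211). DESeq2 called Myh7b (adjusted p = 0.00113) and Myh3 (3.61e-05) higher, where 0.720% of all genes were. Of 8 developmental muscle genes 0 passed and 6 were positive, with a median of 0.82, and the lowest p-values were those of Myh3, perinatal Myh8 at 0.75 (adjusted p = 0.369) and the adhesion molecule gene Ncam1 at 0.63 (adjusted p = 0.423). With the set as a term 2 of the 8 developmental and 2 of the 9 heavy chain genes were called higher, against 1.48% of all genes. Without replicate 2 of 30 months that fit called 0 and 1 of them, the 1 being Myh7, and the adjusted p was 0.751 in place of 0.042 for Ncam1 and 0.166 in place of 0.0195 for Myh7b.

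Lists closer to the light chains and the thin filament lay near the median of all genes. Of 5 tested light chain genes outside the 10, 0 passed, with a median log2 fold change of 0.02. The non-muscle regulatory light chain gene Myl12a was at 0.73 (adjusted p = 0.393), the smooth muscle gene Myl9 at 0.51 (0.422) and Myl10 at -0.47 (0.909). Of 12 genes of other light chain kinases, the light chain phosphatase and its regulators, and calmodulin, 0 passed, with a median of 0.09. Ppp1r12b, a targeting subunit of the phosphatase in striated muscle, was at 0.55 (adjusted p = 0.575) and Calm2 at 0.23 (0.872). Of 10 thin filament partners 0 passed, with a median of 0.0073. Lmod2, a leiomodin that lengthens thin filaments, was at 0.94 (adjusted p = 0.288), the cardiac actin gene Actc1 at -0.38 (0.826) and the tropomodulin gene Tmod4, which caps the pointed end, at -0.19 (0.876). Of 14 fibre type regulators 0 passed, with a median of 0.03, and Vgll2 was at 0.62 (adjusted p = 0.378), Eya1 at -0.36 (0.522) and Prox1 at 0.67 (0.655). With the set as a term Vgll2 (adjusted p = 0.0259) and Prox1 (0.0345) were called higher, where 1.48% of all genes were. Without replicate 2 of 30 months both of these calls were lost (adjusted p = 0.606 and 0.156).

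**Figure D5:**
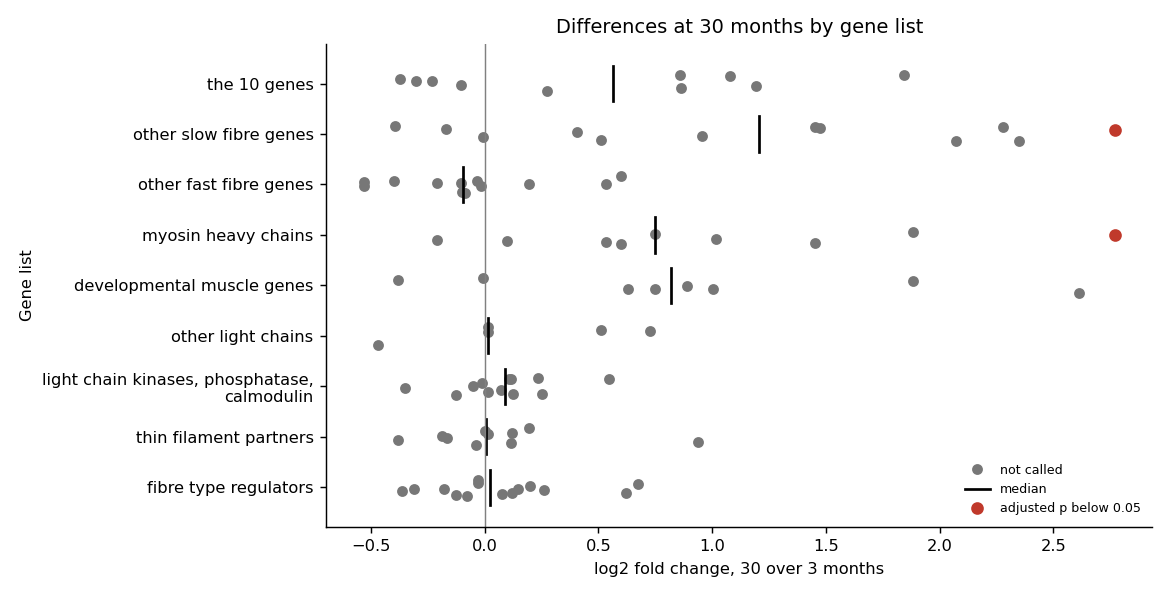
Log2 fold changes at 30 over 3 months (x) of each tested gene by list (rows), red where the edgeR adjusted p is below 0.05 and grey otherwise, with a bar at the median. The medians are 0.57 for the 10 genes, 1.205 for other slow fibre genes and -0.09 for other fast fibre genes, and Myh7 at 2.77 is the single called gene, shown in both lists that hold it.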

How the data were processed

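Total RNA was sequenced in 8 libraries, and the authors deposited whole-number counts per Ensembl gene, not normalized. The submitters' processing notes name GRCm38 and, without roles, STAR 2.5.2b, Trimmomatic 0.36, Subread 1.5.2 and featureCounts. No source used here states the annotation release, strand setting or treatment of multiply matching reads, which leaves genes with copies or opposite-strand neighbours uncertain. Gene lengths in bases are those of the deposited files, and symbols come from GENCODE M21, which matched 48970 of 49315 identifiers.

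edgeR 4.0.16 in R 4.3.3 was run on 19571 genes kept by filterByExpr, with TMM scaling and a robust quasi-likelihood fit of the 4 ages over 8 libraries (4 residual degrees of freedom). It gave 6 pairwise comparisons and, in a second fit, a slope on age. Adjusted p-values are Benjamini-Hochberg over all tested genes, with calls below 0.05. Each SE is the fold change on the log2 scale divided by the square root of F. All 10 members were tested. Members and lists were chosen with earlier results of these data known. All members are named, with up to 3 genes of lowest p from each list and the 3 genes most alike to each member. A few genes that this rule names are not reported here. The library set is the split of summed kidney genes at 1 CPM. Alternatives were RLE, library totals and TMM without sarcomere and mitochondrial genes, no filter, 1 CPM in 2 libraries, DESeq2 1.42.0, limma-voom (limma 3.58.1), only the libraries compared, a replicate block, the library set, and each library left out. Copies were sought with blastn 2.17.0. The fit was also run on simulated counts with known changes, and how many of these it recovered is not reported here. A zero count allows up to 0.0506 to 0.0707 CPM (3 counts), for counting error only.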

Additional observations from a re-analysis of the deposited data

How the results depend on the processing

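With 2 libraries an age, each result rests on a spread pooled over ages, and leaving out a library leaves 1, assumed to vary like the others. None of the 10 genes was called in edgeR in any of the 7 comparisons when any 1 library was left out (0 to 0), with other scalings, with the stricter filter, with limma-voom or with only the libraries compared. With the replicate number as a block the count was also 0 in each. Replicate differences correlated across genes at -0.357 to 0.262 between ages. These values cannot tell whether the numbers pair libraries by mouse or preparation, which the labels do not state. At 30 against 3 months 1 gene was called with no low count filter (Myl2), 2 with DESeq2 and 3 with the library set as a term. With no filter 1 was called at 30 against 12 and 1 at 30 against 24 months, again Myl2. Fitting the set over 12, 24 and 30 months alone, chosen after seeing the data, gave 1 at 30 against 12 months, Tpm3. On the slope, DESeq2 and the set each called 1. Of all 19571 genes in the main fit, 1 was called at 30 against 12 months and 0 at 30 against 24 months. Alternatives called up to 139 and up to 14 of all genes there. The share of all genes under each of these settings is not reported here. Over all genes, 29 calls at 30 against 3 months became 378 with no filter, 213 with DESeq2, 416 with the set, 13 with the block, 19 with the stricter filter, and 10 to 52 without 1 library (10 without either 3 month library, 18 without either 24 month library, 52 without replicate 1 of 30 months). Scaling moved the median of all genes by at most 0.03.

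Signs turned for 10 named genes at 30 against 3 months. When each library was left out in turn, the log2 fold change at 30 against 3 months ranged over -0.33 to 0.17 for Mylpf, -0.77 to 0.0533 for Mylk2, -0.66 to 0.10 for Tpm1, -2.19 to 0.27 for Myl10, -0.0512 to 0.47 for Calm2, -0.40 to 0.0004 for Tmod4, -0.20 to 1.11 for Myh2, -0.11 to 1.08 for Ryr1, -0.0663 to 0.70 for Mb and -0.38 to 1.36 for Cnn1. The library set as a term gave -0.0303 for Calm2. That term without replicate 2 of 30 months, chosen after seeing the data, gave 0.13 for Mylpf and -0.12 for Cnn1. At 24 against 3 months the same ranges were -0.13 to 0.47 for Myl2, -0.19 to 0.60 for Myl3, -0.0066 to 0.49 for Myl4 and -0.0374 to 0.33 for Myl6b. At 12 against 3 months they were -0.0545 to 0.55 for Myl2 and -0.16 to 0.60 for Myl4. The cause was not tested.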

Other observations

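The genes whose levels Myl4 followed most closely over the 8 libraries were antigen presentation genes of MHC class II: H2-Aa (Pearson r = 0.968), Cd74 (0.964) and H2-Ab1 (0.962). H2-Aa was at 17.5 and 20.1 CPM in the 3 month libraries, 26.7 and 15.5 in those of 12 months, 29.4 and 14.8 in those of 24 months and 28.1 and 47.7 in those of 30 months. It was highest in replicate 2 of 30 months and higher in replicate 1 than in replicate 2 at 12 and 24 months, an order that Myl2, Myl3, Myl4 and Tpm3 share and that at these ages follows the kidney-transcript set. Over the same libraries the closest genes to Tpm3 and Myl3 included slow troponins, and the level of Tnni1 was 68.5 and 127 CPM at 30 months against 28.7 and 9.68 CPM at 3 months. The likeness describes these 8 libraries and was not tested.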
